A study of Mus musculus with 71 samples.

Results

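The vessels of the brain were followed through 38 genes of the endothelium and of the blood-brain barrier, named in a list of symbols. The list was chosen with earlier results of these data known, so the members' shares set beside those of all genes are descriptive. All 38 were found once in each of 6 tables of gene expression, among 37681 genes. RNA-seq, which counts sequenced fragments of each gene's RNA, had been carried out on micro-punches of the nucleus accumbens (NAc), ventral tegmental area (VTA) and prefrontal cortex (PFC) of wild-type C57BL/6 mice, which the study's methods give as C57BL/6J, adults of 8 weeks at the start. Through a jugular catheter they took cocaine, at 0.7 mg/kg in each infusion, or saline, in 2-h sessions every day for 21 days, and saline mice had the same food training and surgery. Tissue was collected after 1 day or 28 days of abstinence. This gave 71 libraries in 12 groups by region, time and treatment, each of 6 libraries except the saline VTA at 28 days, which had 5. The labels do not say whether each library came from 1 mouse, whether the regions came from the same mice, or which sex a mouse had, so that p-values measure only the spread between these libraries.

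The endothelium lines every vessel of the brain, and its tight junctions seal the gaps between cells so that most solutes cross only through transporters. Glucose, amino acids and lactate enter by dedicated carriers, while efflux pumps return many drugs to the blood. The state of the barrier is set by Wnt, VEGF, angiopoietin and TGF-beta family signals that act on endothelial receptors and on transcription factors of the ETS, SoxF and forkhead families. In pieces of tissue, fewer endothelial cells and less RNA per endothelial cell cannot be told apart.

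The members were grouped by role into 10 genes of adhesion and junction, 7 receptors, 7 transcription factors, 8 transporters and 6 surface or secreted proteins. Levels are CPM, the reads on a gene scaled by the size of the library, in 4 tables, and RPKM, which is also scaled by gene length, where VTA and PFC were measured at 1 day. Every library held between 20971967 and 49700932 reads on genes. All 8 defining markers of endothelium (Cldn5, Pecam1, Flt1, Cdh5, Tek, Tie1, Slco1a4 and Emcn) passed the filter on low values in every table. Scaled by length, the mean of a member in saline libraries ran from 0.721 to 33.1 RPKM in the NAc at 1 day and from 1.46 to 74.6 RPKM in the VTA at 28 days. Slc2a1, the glucose transporter GLUT1, ranked first of the 38 in all 3 regions at 28 days, with 74.6 ± 20.7 RPKM in the VTA (SD, n = 5), 44.6 ± 7.86 in the NAc (n = 6) and 41.1 ± 5.51 in the PFC (n = 6). The transcription factors Lef1, Foxq1 and Fli1 took the lowest 3 ranks in each region at that time. Exons of 8 members overlap those of other genes: Cd34, Eng, Acvrl1, Foxq1, Slc2a1, Pltp, Nos3 and Egfl7. Their reads may include those of the overlapping genes. For Eng, which overlaps Ak1, and for Egfl7 some of the overlap is on the same strand.

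Several libraries stood apart. Library 4 of the saline PFC at 28 days had a mean of 7.82 for 5 striatal neuron markers on the log2(CPM + 0.1) scale, against a group median of 3.88, and it was the highest of the 12 libraries for 20 of the 38 members. In the VTA, library 6 of the cocaine group at 1 day was highest for 33 members and library 4 of the saline group at 28 days for 32. The mean of 5 cortical neuron markers varied widely between NAc libraries. On the log2(CPM + 0.1) scale it ran from 0.19 to 5.56 at 1 day and from 0.15 to 5.15 at 28 days. The transcript Xist, made from the inactive X chromosome, reached at most 18 reads in any library, and the Y-linked Ddx3y had at least 929 reads in each. By these transcripts every library was of male tissue, while the study's methods name mice of both sexes.

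The sequences just before the transcription start are shown for the leading member of a comparison wherever the promoter table, made from RefSeq on GRCm38.p6, held one. The table held 33 promoters of 22 of the 38 members. Each line gives the 250 bases before a start, 5′ to 3′ on the gene's strand, with capitals for AGGAAG or its reverse complement CTTCCT, the core letters bound by ETS factors such as the members Erg, Fli1 and Ets1.
Mfsd2a (chr4:122961189-122961438, minus strand): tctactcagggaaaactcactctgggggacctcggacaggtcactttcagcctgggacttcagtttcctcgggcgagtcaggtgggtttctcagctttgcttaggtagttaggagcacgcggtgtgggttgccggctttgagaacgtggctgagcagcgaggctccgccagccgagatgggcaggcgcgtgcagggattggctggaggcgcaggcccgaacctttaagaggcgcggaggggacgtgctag
Abcg2 (1 of 3 starts, chr6:58584283-58584532, plus strand): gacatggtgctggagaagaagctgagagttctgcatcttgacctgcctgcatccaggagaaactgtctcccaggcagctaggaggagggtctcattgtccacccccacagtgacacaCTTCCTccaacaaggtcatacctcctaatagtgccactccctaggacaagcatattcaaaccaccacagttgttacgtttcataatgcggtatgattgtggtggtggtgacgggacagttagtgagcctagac
Tie1 (chr4:118489850-118490099, minus strand): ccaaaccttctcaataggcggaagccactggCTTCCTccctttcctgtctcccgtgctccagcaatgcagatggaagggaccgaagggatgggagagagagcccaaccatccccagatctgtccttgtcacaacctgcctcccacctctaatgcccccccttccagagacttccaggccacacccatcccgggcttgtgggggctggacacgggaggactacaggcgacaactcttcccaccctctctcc
Ly6c1 (1 of 2 starts, chr15:75048838-75049087, minus strand): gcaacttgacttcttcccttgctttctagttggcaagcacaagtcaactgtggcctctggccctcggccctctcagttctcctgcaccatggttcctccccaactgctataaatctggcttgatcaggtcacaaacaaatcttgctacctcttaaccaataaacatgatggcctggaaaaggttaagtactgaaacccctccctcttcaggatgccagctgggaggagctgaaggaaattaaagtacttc
The letters occurred once in the Abcg2 and Tie1 windows, and the Mfsd2a and Ly6c1 windows shown held none. On either strand, AGGAAG was in 16 of the 33 member promoters (48.5%) and in 29.5% of all 32851 promoters of the table over the same 250 bases. Letters of other factor families among the members were searched on both strands in the same way. ACAAT, bound by SOX factors, was in 21.2% of member promoters and 27.7% of all, ATCAAAG, bound by Lef1, in 3.03% and 3.21%, and TGTTTAC, a forkhead sequence, in 3.03% and 3.17%. Some genes have several promoters. Counted by gene, AGGAAG was in 59.1% of the 22 members and 32.3% of all genes. ACAAT was in 31.8% and 30.9%, so its direction turned, ATCAAAG in 4.55% and 3.72%, and TGTTTAC in 4.55% and 3.54%. These shares describe letters in a window and were not tested.

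The mean level of the 38 members in each library, taken on the log2 scale after adding 0.1, was furthest apart between cocaine and saline in the VTA, with opposite signs at the 2 times. At 1 day it ran from 2.50 to 3.68 after cocaine (median 3.07) and from 2.48 to 3.04 after saline (median 2.68). At 28 days the order was turned, with 4.29 to 4.96 after cocaine (median 4.48) and 4.58 to 5.60 after saline (median 4.94). The ranges overlapped at both times. The difference of the group means, cocaine minus saline, was 0.32 at 1 day and -0.41 at 28 days in the VTA. In the NAc it was -0.02 and -0.18, and in the PFC -0.11 and -0.07, again with overlapping ranges.

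**Figure D1:**
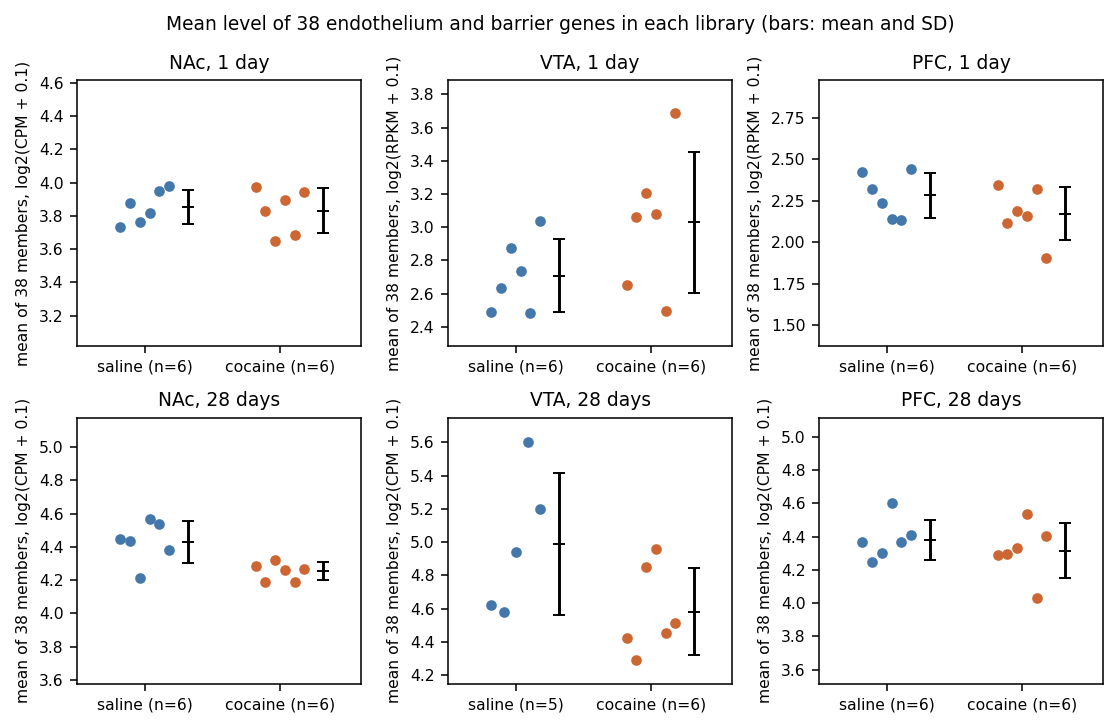
Mean of log2(level + 0.1) over the 38 members (vertical axis, CPM or RPKM as named) in each library, by treatment, with a row of panels for each time and a column for each region. Points are libraries and bars are the mean and SD of a group, and the vertical axes all span the same distance; the VTA libraries spread widest, from 2.48 to 3.68 at 1 day and from 4.29 to 5.60 at 28 days.

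No member passed an adjusted p of 0.05 in any of the 6 comparisons of cocaine with saline by edgeR's quasi-likelihood test (counts) or limma (RPKM), with Benjamini-Hochberg adjustment over all genes. Among all genes tested, the calls were 2 of 15878 in the NAc (0.0126%), 28 of 15042 in the VTA (0.186%) and 1 of 14427 in the PFC (0.00693%) at 1 day, and none (0%) of the 16295, 16937 and 16340 genes tested at 28 days. By DESeq2, 1 member was called in the NAc at 1 day, where 0.132% of genes were called, and on reads recovered from RPKM 1 in the VTA at 1 day, where 4.31% were. DESeq2 called no member in the other 4 comparisons. The values that follow are therefore estimates, and unadjusted p-values are given for them.

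**Figure D2:**
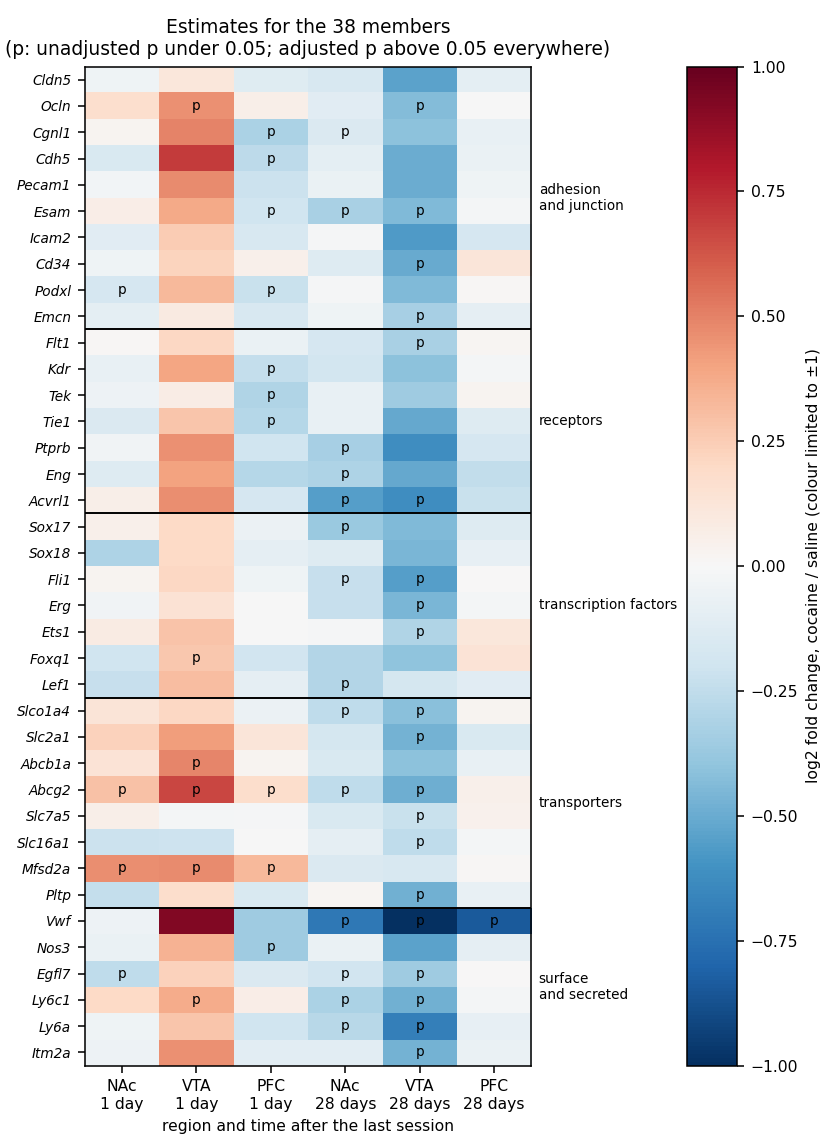
Log2 fold change of cocaine over saline (colour, limited to ±1) for the 38 members (rows, by role) in the 3 regions at 1 and 28 days (columns). A letter p marks an unadjusted p under 0.05, and no adjusted p was under 0.05; 36 of 38 estimates were above 0 in the VTA at 1 day and none of 38 at 28 days.

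In the NAc at 1 day the median log2 fold change of the members was -0.04, with 15 of 38 estimates above 0, against 49.5% of all genes. An unadjusted p under 0.05 was found for 2 members with a higher estimate and 2 with a lower one, where 2.76% and 1.25% of all genes had one. Of the 8 transporters, 6 had higher estimates, and both of the higher members at this threshold were transporters. The lower ones were Egfl7 and Podxl, a sialomucin of the vessel lining.

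Mfsd2a carries lysophosphatidylcholine with omega-3 fatty acids into the brain and restrains transcytosis across the endothelium (chromosome 4, 122624093 to 122638431, mm9). It ranged from 19.9 to 30.1 CPM after cocaine (median 23.6) and from 14.8 to 19.3 CPM after saline (median 17.6). Every cocaine library lay above every saline library, as was the case for 0.252% of the genes tested. The log2 fold change was 0.47 ± 0.10 (SE), with an unadjusted p of 0.000331 and an adjusted p of 0.477 by edgeR. DESeq2 gave the same size with an adjusted p of 0.0115, the call mentioned above, and over the alternatives the adjusted p ran from 0.0115 to 0.846.

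Abcg2, the efflux pump BCRP, which returns drugs and toxins to the blood, ranged from 15.2 to 24.5 CPM after cocaine (median 20.8) and from 13.3 to 19.5 CPM after saline (median 16.8). The groups overlapped through cocaine library 5, and the log2 fold change was 0.29 ± 0.13 (SE, unadjusted p = 0.036, edgeR). Egfl7, a secreted protein that guides vessel tube formation, ranged from 12.4 to 15.4 CPM after cocaine (median 14.1) and from 12.8 to 18.2 CPM after saline (median 17.5). Saline library 4 was the only one of its group in the cocaine range, and the log2 fold change was -0.25 ± 0.09 (SE, unadjusted p = 0.0131, edgeR). Reads on Egfl7 cannot be told apart from those of overlapping transcripts, among them its partner on the other strand, Agpat2.

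The general markers of endothelium overlapped between the groups. Cldn5, the main claudin of the tight junction, was at 10.6 ± 1.63 CPM after cocaine and 10.9 ± 1.07 CPM after saline (SD, n = 6 each). Pecam1 (CD31), which joins endothelial cells to each other, was at 20.4 ± 1.90 and 20.9 ± 1.57 CPM, and the VEGF receptor Flt1 at 70.5 ± 11.8 and 69.9 ± 7.83 CPM. Vwf, the clotting factor stored by endothelial cells, was at 17.3 ± 3.504 and 17.9 ± 2.36 CPM. Slc2a1 was at 71.2 ± 14.8 CPM after cocaine and 60.9 ± 7.20 CPM after saline, a log2 difference of 0.23 ± 0.13 (SE, unadjusted p = 0.0941, edgeR). A list of 10 glucocorticoid-responsive genes also differed here, with library means of 4.68 to 5.37 after cocaine and 4.24 to 4.47 after saline on the log2(CPM + 0.1) scale. The part of that list in the levels of Mfsd2a and Abcg2 was not tested.

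In the VTA at 1 day nearly every member had a higher estimate after cocaine. There were 36 of 38 estimates above 0, against 58.9% of all genes, and their median was 0.30. All 10 adhesion and junction genes, all 7 receptors, all 7 transcription factors and all 6 surface or secreted proteins were among the 36, with medians of 0.35, 0.39, 0.21 and 0.36. The exceptions were both transporters, the lactate carrier Slc16a1 and the amino acid carrier Slc7a5. An unadjusted p under 0.05 was found for 6 members, all higher, where 11.1% of all genes had one in that direction and 4.29% in the other. On reads recovered from RPKM, edgeR gave 11 higher members and 1 lower at this threshold, where 9.52% and 7.4% of genes had one, and DESeq2 gave 13 and 1, where 10.4% and 7.35% had one. The 6 members by limma were Abcg2, Ocln, Mfsd2a, Ly6c1, the efflux pump Abcb1a (P-glycoprotein) and the transcription factor Foxq1. Of these, 4 had an adjusted p under 0.25 by limma, where 8.44% of all genes did.

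Abcg2 ranged from 11.1 to 27.2 RPKM after cocaine (median 15.7) and from 9.10 to 10.8 RPKM after saline (median 9.80). All 6 cocaine libraries were above all 6 saline libraries, as was so for 1.3% of genes, with cocaine library 6 far above the others. The log2 fold change was 0.67 ± 0.17 (SE), with an unadjusted p of 0.0023 and an adjusted p of 0.128 by limma. DESeq2 on recovered reads gave 0.69 with an adjusted p of 0.00665, the only call for this gene in a comparison of cocaine with saline. The adjusted p ran from 0.00665 to 0.654 over the alternatives.

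Ocln, an integral protein of tight junctions, ranged from 2.86 to 5.59 RPKM after cocaine (median 3.54) and from 2.12 to 3.24 RPKM after saline (median 2.58). The log2 fold change was 0.46 ± 0.15 (SE, unadjusted p = 0.0109, limma). The ranges met only through saline library 6. Mfsd2a ranged from 12.7 to 22.9 RPKM after cocaine (median 14.2) and from 8.61 to 14.7 RPKM after saline (median 10.2), with a log2 fold change of 0.47 ± 0.17 (SE, unadjusted p = 0.0169, limma). Here saline libraries 4 and 6 reached into the cocaine range. Vwf had the largest estimate of the members, 0.93 ± 0.47 (SE), and a wide spread, from 3.18 to 28.8 RPKM after cocaine (median 8.28) and from 2.74 to 7.89 RPKM after saline (median 3.28). Its unadjusted p was 0.0729 by limma.

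**Figure D3:**
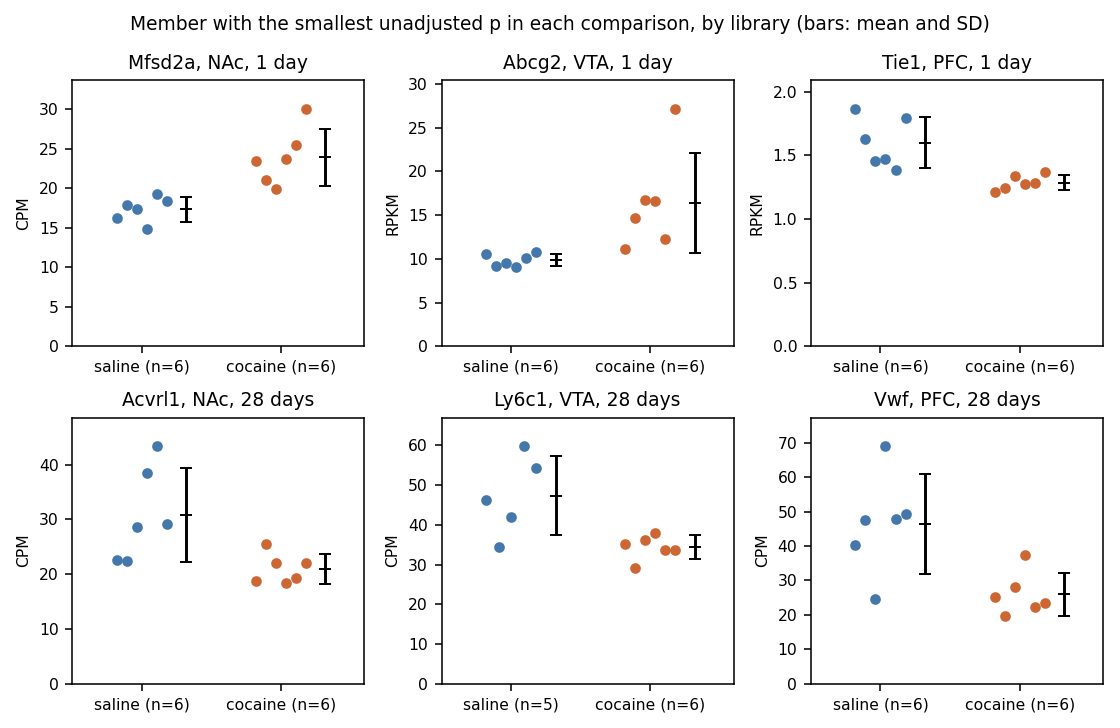
Level in each library (vertical axis from 0, CPM or RPKM as named) of the member with the smallest unadjusted p in each of the 6 comparisons, by treatment. Points are libraries and bars are the mean and SD; the groups do not overlap for Mfsd2a in the NAc, Abcg2 in the VTA and Tie1 in the PFC at 1 day, and they overlap for the leading members at 28 days.

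The general markers overlapped between the groups. Cldn5 was at 14.0 ± 4.36 RPKM after cocaine and 12.5 ± 1.73 RPKM after saline, and Pecam1 at 14.2 ± 5.02 and 9.90 ± 2.55 RPKM (SD, n = 6 each). Flt1 was at 15.2 ± 2.97 and 13.1 ± 2.08 RPKM, and Slc2a1 at 53.3 ± 19.1 and 38.5 ± 7.85 RPKM, a log2 difference of 0.42 ± 0.22 (SE, unadjusted p = 0.0884, limma).

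The mean of the members in the VTA moved with lists for other cells of the vessel wall and the brain surface. In library 6 of the cocaine group, with the highest member mean of 3.68, the mean was 3.51 for 8 pericyte genes, 4.05 for 5 smooth muscle genes and 4.67 for 6 fibroblast genes on the log2(RPKM + 0.1) scale. In library 5 of the same group, with a member mean of 2.50, these were 2.13, 1.07 and 1.65. Over the groups the smooth muscle mean ran from 1.07 to 4.05 after cocaine and from 0.08 to 2.75 after saline, the fibroblast mean from 1.65 to 4.67 and from 0.40 to 2.79, and the red blood cell mean from 2.50 to 6.19 and from 2.91 to 4.33. The choroid plexus list ran from -0.87 to 3.31 after cocaine and from -0.97 to 1.18 after saline, and the cortical neuron list from -0.32 to 1.27 and from -1.37 to 0.55. Other lists lay lower after cocaine. The mean of 8 microglia genes ran from 3.24 to 3.83 after cocaine and from 3.84 to 4.35 after saline, with no overlap, and that of 4 dopamine neuron genes from 6.62 to 7.86 and from 7.17 to 8.60. Fits with the pericyte or the cortical neuron mean as a covariate are given next. The pericyte genes belong to the same vessel wall as the members, and the cortical neuron mean was at most 1.27 in these libraries. The fits therefore do not show what part the lists had in the members' levels, which was not tested.

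With the pericyte mean as a covariate, the median log2 fold change of the members was 0.02, with 22 of 38 estimates above 0. With the cortical neuron mean as a covariate it was -0.07, with 14 above 0 and none at an unadjusted p under 0.05. Abcg2 was at 0.44 in the first fit (unadjusted p = 0.00368, limma) and 0.39 in the second (unadjusted p = 0.0678, limma). Without cocaine library 6 the median was 0.16, with 33 of 38 estimates above 0 and 6 members at an unadjusted p under 0.05. The number at that threshold was 22 without cocaine library 5, 15 without cocaine library 1 and 13 without saline library 6. Over all 12 fits that left out 1 library it ran from 4 to 22.

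**Figure D4:**
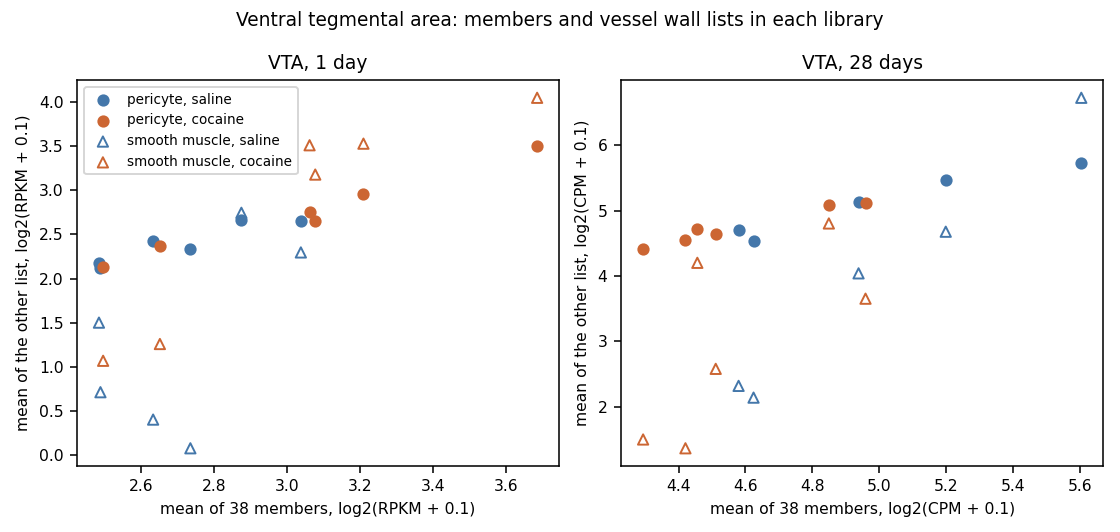
Mean of 8 pericyte genes (filled circles) and of 5 smooth muscle genes (open triangles) on the vertical axis against the mean of the 38 members on the horizontal axis, all as log2(level + 0.1), in each VTA library at 1 day (RPKM) and 28 days (CPM). Libraries with a high member mean have a high pericyte mean in both treatments; the highest are a cocaine library at 1 day (3.68 for the members, 3.51 for pericytes) and a saline library at 28 days (5.60 and 5.73).

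In the PFC at 1 day the estimates were mostly lower after cocaine, by a small amount. There were 31 of 38 below 0, against 54.6% of all genes, with a median of -0.13. An unadjusted p under 0.05 was found for 8 members with a lower estimate, where 2.5% of all genes had one, and for 2 with a higher estimate, where 1.64% had one. All 7 receptors had lower estimates, with a median of -0.24, and Tie1, Tek and Kdr led the list. The 2 higher members were again Mfsd2a and Abcg2.

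Tie1, the partner of the angiopoietin receptor (chromosome 4, 118143796 to 118162666, mm9), ranged from 1.21 to 1.37 RPKM after cocaine (median 1.28) and from 1.39 to 1.87 RPKM after saline (median 1.55). All cocaine libraries were below all saline libraries, as was the case for 0.0762% of genes. The log2 fold change was -0.29 ± 0.07 (SE), with an unadjusted p of 0.0017 and an adjusted p of 0.806 by limma. Tek, the angiopoietin receptor Tie2, ranged from 2.68 to 4.11 RPKM after cocaine (median 3.72) and from 3.73 to 5.05 RPKM after saline (median 4.52). Kdr, the main signalling receptor for VEGF, ranged from 1.77 to 2.41 RPKM after cocaine (median 2.18) and from 2.36 to 3.06 RPKM after saline (median 2.46). Their log2 fold changes were -0.30 ± 0.10 for Tek and -0.24 ± 0.08 for Kdr (SE), and both pairs of groups overlapped.

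Other members below 0 at this threshold were the nitric oxide synthase Nos3, the junction protein Cgnl1, the cadherin Cdh5, and the adhesion proteins Podxl and Esam. Of the general markers, Cldn5 was at 7.76 ± 1.63 RPKM after cocaine and 8.48 ± 2.00 RPKM after saline, Pecam1 at 5.54 ± 0.85 and 6.42 ± 0.70 RPKM, and Flt1 at 10.3 ± 1.58 and 10.7 ± 1.39 RPKM (SD, n = 6 each). Slc2a1 lay the other way, from 20.7 to 31.9 RPKM after cocaine and from 18.5 to 26.9 RPKM after saline. Vwf ranged from 0.992 to 1.89 RPKM after cocaine and from 1.23 to 2.44 RPKM after saline. Cocaine library 6 was the lowest of the 12 libraries for 24 members. The 8 pericyte genes were also lower in estimate, with library means of 1.53 to 1.73 after cocaine and 1.64 to 2.15 after saline on the log2(RPKM + 0.1) scale. With the pericyte mean as a covariate the median of the members was -0.00, with 18 of 38 above 0 and 5 at an unadjusted p under 0.05. Without saline library 1 the members at that threshold numbered 6, and over all 12 fits that left out 1 library they numbered 6 to 12.

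Mfsd2a and Abcg2 were the members with a higher estimate at an unadjusted p under 0.05 in all 3 regions at 1 day. They were singled out after their values were seen. Among the 13905 genes tested in all 3 tables, 24 (0.173%) met the same condition. In the PFC, Mfsd2a had a log2 fold change of 0.32 ± 0.15 (SE, unadjusted p = 0.0446, limma), at 9.99 ± 2.04 RPKM after cocaine and 7.98 ± 1.65 RPKM after saline. Abcg2 in the PFC was at 9.51 ± 1.18 and 8.35 ± 0.44 RPKM, with a log2 fold change of 0.18 ± 0.08 (SE, unadjusted p = 0.037, limma). When each of the 12 libraries of a table was left out in turn, Mfsd2a stayed under 0.05 in 12 of 12 fits in the NAc and in the VTA and in 6 of 12 in the PFC. Abcg2 did so in 12 of 12 fits in the VTA and in 6 of 12 in the NAc and in the PFC. With the pericyte mean as a covariate, Mfsd2a was at 0.51 in the NAc (unadjusted p = 0.000141, edgeR), 0.38 in the VTA (unadjusted p = 0.0639, limma) and 0.53 in the PFC (unadjusted p = 0.00676, limma). In the VTA the cortical neuron mean as a covariate gave 0.32 for Mfsd2a (unadjusted p = 0.172, limma). Abcg2 was at 0.31 in the NAc (unadjusted p = 0.035, edgeR) and 0.20 in the PFC (unadjusted p = 0.0624, limma) with the pericyte covariate. The glucocorticoid-responsive list had library means of 3.41 to 4.80 after cocaine and 3.12 to 3.64 after saline in the VTA, and of 3.40 to 4.02 and 2.94 to 3.40 in the PFC, on the log2(RPKM + 0.1) scale, and its part in these levels was not tested.

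In the NAc at 28 days almost all members had a lower estimate after cocaine. There were 37 of 38 below 0, against 48% of all genes, with a median of -0.16. An unadjusted p under 0.05 was found for 14 members, all lower, where 3.42% of all genes had one in that direction. They were spread over the roles, with 2 adhesion and junction genes, 3 receptors, 3 transcription factors, 2 transporters and 4 surface or secreted proteins. The exception above 0 was Pltp, which transfers phospholipids, at 0.02.

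Acvrl1, the endothelial receptor ALK1 for BMP9 and BMP10 (chromosome 15, 100958953 to 100975767, mm9), ranged from 18.3 to 25.5 CPM after cocaine (median 20.7) and from 22.5 to 43.4 CPM after saline (median 28.9). The log2 fold change was -0.55 ± 0.15 (SE), with an unadjusted p of 0.00267 and an adjusted p of 0.592 by edgeR. Cocaine library 2 reached into the saline range. Ly6c1, a surface antigen of brain endothelium, ranged from 25.4 to 29.7 CPM after cocaine (median 26.4) and from 27.0 to 41.5 CPM after saline (median 32.9), a log2 fold change of -0.31 ± 0.09 (SE). Reads on it may be shared with near-identical genes of the Ly6 family. Esam, an adhesion molecule of endothelial junctions, ranged from 14.5 to 17.4 CPM after cocaine (median 15.4) and from 17.1 to 24.6 CPM after saline (median 18.1), a log2 fold change of -0.33 ± 0.09 (SE).

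Vwf had the largest estimate, with 21.9 to 37.5 CPM after cocaine (median 29.6) and 28.4 to 84.6 CPM after saline (median 43.9). Its log2 fold change was -0.71 ± 0.24 (SE, unadjusted p = 0.00931, edgeR). Cldn5 was at 39.3 ± 6.05 CPM after cocaine and 43.9 ± 8.03 CPM after saline, in means and SD (n = 6 each). Pecam1 ranged from 20.8 to 25.9 CPM and from 20.7 to 30.7 CPM. Flt1 was at 82.7 ± 7.58 and 92.8 ± 11.1 CPM, and Slc2a1 at 104 ± 8.94 and 117 ± 22.1 CPM. These ranges all overlapped. Saline libraries 1, 4 and 5 held the highest value for 32 members between them. The pericyte list ran from 4.19 to 4.49 after cocaine and from 4.21 to 4.80 after saline, the red blood cell list from 2.88 to 3.65 and from 3.06 to 5.67, and all 5 red blood cell genes had a lower estimate at an unadjusted p under 0.05. With the pericyte mean as a covariate the median of the members was -0.12, with 31 of 38 below 0 and 10 at an unadjusted p under 0.05. Without cocaine library 2 the members at that threshold numbered 8, and over all 12 fits that left out 1 library they numbered 8 to 18.

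In the VTA at 28 days all 38 members had a lower estimate after cocaine, against 56.9% of all genes, with a median of -0.46. An unadjusted p under 0.05 was found for 20 members, where 6.39% of all genes had one in that direction. By role, these were 4 of 10 adhesion and junction genes, 2 of 7 receptors, 3 of 7 transcription factors, 6 of 8 transporters and 5 of 6 surface or secreted proteins. The smallest adjusted p was 0.389 by edgeR.

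Ly6c1 stood at 46.3, 34.4, 42.1, 59.8 and 54.2 CPM in saline libraries 1 to 5, and ranged from 29.1 to 38.1 CPM after cocaine (median 34.5). Only saline library 2 was inside the cocaine range, and the log2 fold change was -0.48 ± 0.13 (SE, unadjusted p = 0.00293, edgeR). Ly6a (Sca-1), another surface antigen of the family, stood at 34.8, 28.3, 34.5, 54.8 and 47.2 CPM in the saline libraries and ranged from 19.1 to 36.0 CPM after cocaine (median 22.8), a log2 fold change of -0.68 ± 0.19 (SE). Cd34, a sialomucin of endothelium, stood at 31.0, 25.9, 30.4, 44.0 and 41.6 CPM in the saline libraries and ranged from 21.2 to 29.9 CPM after cocaine (median 24.1), a log2 fold change of -0.50 ± 0.14 (SE). In all of them saline libraries 4 and 5 were the highest of the 11. Slc7a5, the carrier LAT1 for large neutral amino acids, was the member without overlap: 82.9 to 97.6 CPM after cocaine and 97.8 to 111 CPM after saline, as was so in this direction for 0.325% of genes. Its log2 fold change was -0.22 ± 0.06 (SE, unadjusted p = 0.00421, edgeR).

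The general markers were lower in estimate, with wide ranges. Vwf stood at 35.8, 46.6, 101, 358 and 197 CPM in the saline libraries and ranged from 17.6 to 129 CPM after cocaine (median 39.2), a log2 fold change of -1.51 ± 0.66 (SE). Pecam1 stood at 27.0, 27.6, 40.8, 85.3 and 41.9 CPM in the saline libraries, and ranged from 23.5 to 43.6 CPM after cocaine. Cldn5 was at 49.3 ± 12.6 CPM after cocaine (n = 6) and 70.6 ± 27.4 CPM after saline (n = 5), and Flt1 at 96.8 ± 12.3 and 120 ± 28.8 CPM (SD). Slc2a1 was at 141 ± 20.95 and 194 ± 51.3 CPM, a log2 difference of -0.47 ± 0.16 (SE).

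Lists of other cells moved with the members here too. In saline library 4, where the member mean was 5.60, the pericyte mean was 5.73, the smooth muscle mean 6.73 and the fibroblast mean 6.58 on the log2(CPM + 0.1) scale. Over the groups the smooth muscle mean ran from 1.36 to 4.80 after cocaine and from 2.14 to 6.73 after saline, the fibroblast mean from 2.17 to 5.17 and from 2.46 to 6.58, and the cortical neuron mean from 0.71 to 1.498 and from 0.94 to 2.83. The microglia mean ran from 4.47 to 5.17 after cocaine and from 4.90 to 5.89 after saline, and the dopamine neuron mean from 8.55 to 10.1 and from 8.09 to 10.3. Without saline library 4 the median of the members was -0.24, with all 38 below 0 and 10 at an unadjusted p under 0.05. The number was also 10 without saline library 5 or cocaine library 2, 12 without cocaine library 5 and 13 without cocaine library 1. Over all 11 fits that left out 1 library it ran from 10 to 28. Without saline libraries 4 and 5 together, a choice made after seeing the data, the median was -0.16, with 31 of 38 below 0 and 2 at that threshold. With the pericyte mean as a covariate it was -0.15, with 30 of 38 below 0. With the cortical neuron mean it was 0.14, with 25 of 38 above 0, so that the sign of the median turned. What part these lists had in the members' levels was not tested.

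In the PFC at 28 days 26 of 38 estimates were below 0, against 49.9% of all genes, with a median of -0.05. The median was 0.01 without saline library 4, the library with striatal markers, and 0.01 without cocaine library 5. Vwf was the 1 member at an unadjusted p under 0.05, and it was lower, as were 2.97% of all genes at that threshold. It ranged from 19.5 to 37.3 CPM after cocaine (median 24.2) and from 24.5 to 69.0 CPM after saline (median 47.6). The log2 fold change was -0.84 ± 0.20 (SE), with an unadjusted p of 0.000743 and an adjusted p of 0.842 by edgeR. Saline library 3 was the 1 saline library inside the cocaine range, and the highest value was that of saline library 4.

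Acvrl1 ranged from 11.6 to 18.2 CPM after cocaine (median 16.3) and from 16.2 to 23.8 CPM after saline (median 17.6), and Eng, the co-receptor endoglin that works with ALK1, from 20.8 to 34.9 CPM (median 31.3) and from 28.8 to 51.6 CPM (median 33.0). The log2 fold changes were -0.22 ± 0.11 and -0.24 ± 0.14 (SE). Cocaine library 5 was the lowest of the 12 libraries for 23 members, Cldn5 among them at 23.9 CPM, where the group's median was 44.3. Cldn5 was at 42.2 ± 9.64 CPM after cocaine and 45.3 ± 9.22 CPM after saline, Pecam1 at 23.2 ± 2.52 and 23.9 ± 3.49 CPM, Flt1 at 85.8 ± 14.1 and 84.6 ± 11.4 CPM, and Slc2a1 at 97.0 ± 8.09 and 107 ± 15.6 CPM (SD, n = 6 each).

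Vwf was the member with a lower estimate at an unadjusted p under 0.05 in all 3 regions at 28 days, again singled out after its values were seen. Among 15751 genes tested in all 3 tables, 10 (0.0635%) met this condition. Leaving out each library in turn kept it under 0.05 in 12 of 12 fits in the NAc and in the PFC. In the VTA it did so in 5 of 11, and without saline library 4 the log2 fold change there was -0.86 (unadjusted p = 0.183, edgeR). With the pericyte mean as a covariate it was -0.34 in the NAc, -0.23 in the VTA and -0.68 in the PFC, with unadjusted p of 0.045, 0.26 and 0.000155 by edgeR. In the VTA the cortical neuron mean as a covariate gave 0.70, with the sign turned. At 1 day the estimates of Vwf were -0.05 in the NAc, 0.93 in the VTA and -0.35 in the PFC.

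Whether the difference between cocaine and saline differed between the 1-day and 28-day libraries was tested as an interaction in each region. Each time had its own table, so time cannot be told apart from other differences between the sets of libraries. In the NAc the members' saline mean was 3.85 at 1 day and 4.43 at 28 days on the log2(CPM + 0.1) scale. Saline Cldn5 was at 10.9 and 43.9 CPM there, and Slco1a4 at 72.3 and 58.9 CPM. What part such differences had in the interactions was not tested. No member passed an adjusted p of 0.05 by edgeR (NAc) or limma (VTA and PFC), where 0.0181%, 0% and 0.014% of genes did. In the VTA all 38 estimates were above 0, against 56% of all genes, the direction of a higher difference at 1 day, with a median of 0.72. There, 25 members had an unadjusted p under 0.05, where 8.7% of all genes had one in that direction, and 5 had an adjusted p under 0.25, where 1.4% of genes did. Over 23 fits that each left out 1 library, the members at an unadjusted p under 0.05 numbered 17 to 34. The VTA fit includes cocaine library 6 at 1 day and saline library 4 at 28 days, which were highest for 33 and 32 members. The leading members were Abcg2, with an interaction of 1.11 ± 0.26, Ly6c1 with 0.81 ± 0.19, and the organic anion carrier Slco1a4 with 0.59 ± 0.17 on the log2 scale (SE), each with an adjusted p of 0.232 by limma. In the NAc 11 members had an unadjusted p under 0.05, all above 0, where 2.75% of genes had one. Mfsd2a led there with 0.60 ± 0.13 (SE), an unadjusted p of 0.000105 and an adjusted p of 0.225 by edgeR. By DESeq2, 1 member was called in the NAc, where 0.0602% of genes were. In the PFC 1 member had an unadjusted p under 0.05, below 0, where 2.89% of genes had one.

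A second list of 38 genes of barrier pathways, with the ligands, Wnt components and transporters that act beside the members, held no gene called in any comparison of cocaine with saline. In the VTA at 1 day 10 of 37 tested had a higher estimate at an unadjusted p under 0.05 and 2 a lower one, where 11.1% and 4.29% of all genes had one. Among them were Angpt1, an activating ligand of Tek, at 0.30 ± 0.08, and Angpt2, which modulates it, at 1.07 ± 0.44 on the log2 scale (SE). In the NAc at 28 days 6 of 38 had a lower estimate and 1 a higher one at this threshold, where 3.42% and 3.34% of all genes had one. Angpt2 was at -0.58 ± 0.16 and Vegfa, the ligand of Kdr and Flt1, at -0.20 ± 0.06 (SE). In the VTA at 28 days 7 had a lower estimate and none a higher one (6.39% and 5.08% of all genes). In the PFC at 1 day 4 of 35 had a lower one and none a higher one (2.5% and 1.64%). In the NAc at 1 day 2 had a higher estimate and 1 a lower one (2.76% and 1.25%), and in the PFC at 28 days 1 a higher and none a lower one (2.69% and 2.97%).

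The regions were also compared with each other. In saline libraries at 28 days, edgeR over 17 libraries called 28 of 38 members higher and 1 lower in the VTA than in the PFC, where 29.8% of all genes were called higher and 28.1% lower. Between the VTA and the NAc 27 were called higher in the VTA and none lower by edgeR, where 32.6% and 29.8% of all genes were. None was lower at an unadjusted p under 0.05 either, where 31.4% of all genes were. Between the NAc and the PFC 2 members were higher and 2 lower in the NAc, where 20% and 20.7% of all genes were. Of the 10 adhesion and junction genes, 9 were higher and 1 lower in the first of these contrasts, and all 10 were higher in the second. In these saline libraries the cortical neuron mean ran from 1.87 to 5.15 in the NAc and from 6.73 to 7.49 in the PFC. The part of cortical cells in the NAc libraries was not tested.

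Slc16a1, the lactate and ketone carrier MCT1, was at 66.8 ± 8.76 CPM in the VTA (SD, n = 5), 30.0 ± 2.31 CPM in the NAc and 33.5 ± 2.52 CPM in the PFC (n = 6 each). Its log2 difference was 1.05 ± 0.09 against the NAc (SE, adjusted p = 1.31e-08, edgeR) and 0.85 ± 0.09 against the PFC (adjusted p = 2.18e-07). The lowest VTA library, at 56.4 CPM, was above the highest of the other regions, 37.3 CPM. In the same saline libraries the mean of 5 oligodendrocyte genes ran from 10.4 to 11.4 in the VTA on the log2(CPM + 0.1) scale. It ran from 9.02 to 9.32 in the NAc and from 8.44 to 9.69 in the PFC. The part of other cell types in the level of Slc16a1 was not tested. Cgnl1, the junction protein paracingulin, was at 58.5 ± 27.2 CPM in the VTA, 28.6 ± 2.06 CPM in the NAc and 20.2 ± 4.30 CPM in the PFC, with a log2 difference of 1.38 ± 0.22 against the PFC (SE, adjusted p = 2.6e-05, edgeR). Abcg2 was at 29.7 ± 8.45 CPM in the VTA and 14.4 ± 2.28 CPM in the NAc, a log2 difference of 0.95 ± 0.16 (SE, adjusted p = 6.89e-05, edgeR). Of the members called higher in the VTA, Vwf had the largest difference from each of the other regions, at 148 ± 134 CPM in the VTA, 48.4 ± 21.9 CPM in the NAc and 46.4 ± 14.4 CPM in the PFC. Its log2 difference was 1.53 ± 0.47 against the PFC and 1.51 ± 0.47 against the NAc (SE), and without VTA library 4 it was 0.90 and 0.88, with adjusted p of 0.0709 and 0.0727 by edgeR.

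Cd34 went the other way in the cortex. It was at 97.5 ± 16.2 CPM in the PFC, 24.7 ± 3.46 CPM in the NAc and 34.6 ± 7.80 CPM in the VTA. The log2 difference from the PFC was -2.03 ± 0.14 in the NAc (SE, adjusted p = 1.89e-08, edgeR) and -1.64 ± 0.15 in the VTA (adjusted p = 4.04e-08). The lowest PFC library, 75.8 CPM, was above the highest of the other regions, 44.0 CPM. An antisense transcript, Gm16897, overlaps its exons, and reads of both cannot be told apart where strand is not used. Slc7a5 was lower in the NAc than in the PFC, at 64.8 ± 7.28 against 87.5 ± 5.08 CPM (log2 difference -0.48 ± 0.07, SE, adjusted p = 3.62e-05, edgeR). Acvrl1 was higher in the NAc than in the PFC, at 30.8 ± 8.52 against 18.5 ± 2.70 CPM (0.69 ± 0.21, SE), and so was Emcn, the sialomucin endomucin, at 8.07 ± 0.47 against 6.37 ± 0.76 CPM (0.29 ± 0.09, SE).

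The same contrasts were made in the cocaine libraries at 28 days, which are other libraries. There, 11 members were called higher and 2 lower in the VTA than in the PFC, where 33.3% and 31.6% of all genes were, so that the members' share was not above that of all genes. In that contrast 12 calls were shared in direction with the saline libraries, 41.4% of the saline calls and 92.3% of the cocaine calls. Between the VTA and the NAc 16 members were called higher and none lower by edgeR, where 35% and 33.5% of all genes were, with 14 calls shared (51.9% and 87.5%). Between the NAc and the PFC 5 were called higher and 7 lower, where 26.9% and 26.5% of all genes were, with all 4 saline calls shared. Cd34 was at -2.28 in the NAc and -2.23 in the VTA against the PFC, and Slc16a1 at 0.92 in the VTA against the NAc. Vwf was at 0.74 in the VTA against the NAc, with an adjusted p of 0.0749 by edgeR. Fli1, called at 0.51 in the VTA against the PFC in saline libraries (adjusted p = 0.0205, edgeR), was at -0.02 in cocaine libraries (adjusted p = 0.932). Without VTA library 4 the saline libraries gave 19 members higher in the VTA than in the PFC and 16 than in the NAc.

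**Figure D5:**
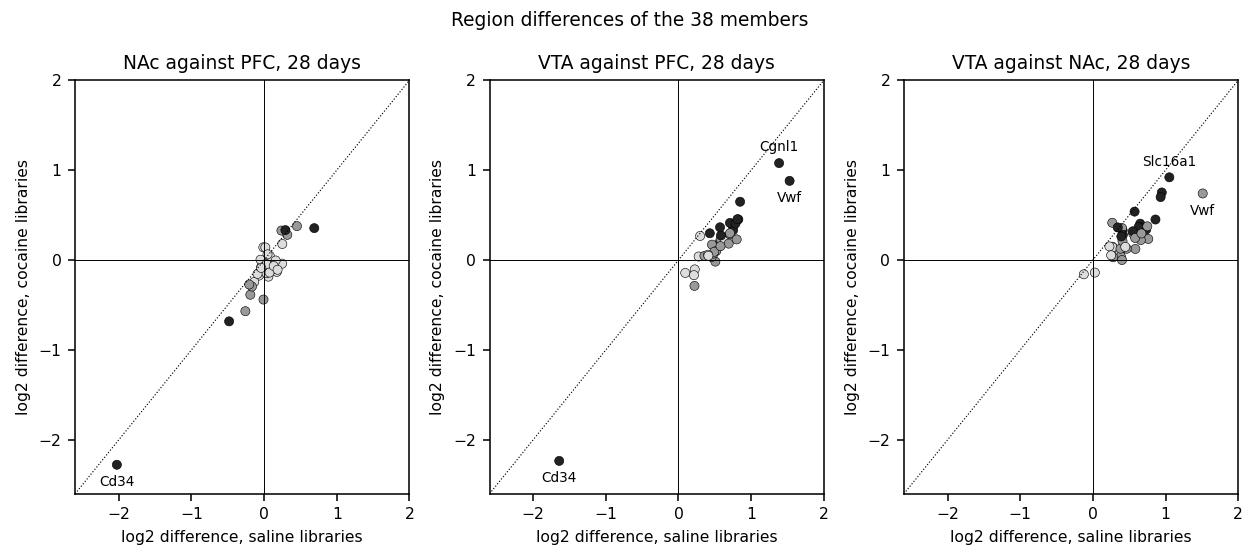
Log2 difference between regions for the 38 members at 28 days in saline libraries (horizontal axis) and in cocaine libraries (vertical axis), for the 3 pairs of regions. Black points passed an adjusted p of 0.05 in both, grey in 1 of them and white in neither, and the dotted line marks equal values; Cd34 lies at -2.03 and -2.28 in the NAc against the PFC, and most members lie above 0 in the VTA against the PFC.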

How the data were processed

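RNA-seq of the 71 libraries was analysed from 6 tables. The authors mapped the reads to mm9 with STAR 2.4.1d, using Ensembl genes. For 4 tables they deposited unscaled counts per gene. The authors deposited RPKM for the other two tables, which hold the 1-day libraries of VTA and PFC. The counting tool and the strand used were not given in the sources used here. The deposited tables also hold the authors' log2 fold changes and p-values, which were not used, and 30 columns of libraries of no sample here, also not used. Columns at 28 days name a group but no labelled sample, so library numbers at that time only name a column.

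Counts were tested with edgeR 4.0.16 in R 4.3.3 (filterByExpr with a minimum count of 10 and total of 15, TMM, quasi-likelihood), with SE taken from the F statistic. For RPKM, limma 3.58.1 was used after adding 0.1 and taking log2, for genes averaging 0.5 or more, a scale that understates the change of low genes. DESeq2 1.42.0 was an alternative. Whole reads were recovered from RPKM for 100% of 23806 genes in the VTA and 23353 in the PFC, and DESeq2 was also run on them. Libraries of 20971967 to 49700932 reads limit the precision for low genes. All tests were two-sided and adjusted over all genes tested by Benjamini-Hochberg. The edgeR and limma comparisons of cocaine with saline were checked on simulated data, drawn with an equal spread for all genes and without outlying libraries. The interactions, region contrasts, DESeq2 fits, covariate fits and replicate block were not checked in that way. Interactions were fitted over both times of a region, for the VTA and PFC on log2 RPKM and log2 CPM with an intercept for each table. In every region each time was a table of its own, so time and table cannot be told apart.

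In each comparison of cocaine with saline the 3 members with the smallest p were named, with 5 general markers (Cldn5, Pecam1, Flt1, Slc2a1 and Vwf), and in region contrasts the 3 called members with the largest difference in each direction. Other members named were singled out after their values were seen. The members and all lists of genes were chosen with earlier results of these data known. The labels do not link libraries of different regions to an animal. Of 175 pairs of libraries within groups, none held identical values. Alternatives were another count model, scaling, filter, pseudocount and threshold, leaving out each library, a replicate block, and list means as covariates.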

Additional observations from a re-analysis of the deposited data

Results flagged for a closer look

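In 106 groups of 5 or 6 libraries, taken over the named members and tables, 9 held a library far from the others by Dixon's criterion, which chance meets in about 1 of 20 groups. In the NAc at 1 day, saline library 4 was low for Egfl7, at 12.8 CPM where the group's median was 17.5. In the VTA at 1 day, cocaine library 6 was high for Abcg2 (27.2 RPKM, median 15.7) and Vwf (28.8 RPKM, median 8.28), and cocaine library 3 for Mfsd2a (22.9 RPKM, median 14.2). Saline library 6 of the PFC at 1 day was high for Kdr, at 3.06 RPKM (median 2.46).

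At 28 days, saline library 4 of the VTA was high for Pecam1, at 85.3 CPM (median 40.8). In the PFC, saline library 4, which also held the striatal neuron markers, was high for Acvrl1 (23.8 CPM, median 17.6) and Eng (51.6 CPM, median 33.0), and cocaine library 5 was low for Cldn5 (23.9 CPM, median 44.3).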

How the results depend on the processing

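Of the named results that passed a test, none reversed under the alternatives run. Fli1, called in the VTA against the PFC but not named by the rule, was at -0.02 in the cocaine libraries and 0.51 in the saline libraries. The count of members called was 0 in each comparison of cocaine with saline, and it became 1 by DESeq2 in the NAc at 1 day (Mfsd2a), 1 by DESeq2 on recovered reads in the VTA at 1 day (Abcg2), and 4 in the VTA at 1 day with an adjusted p under 0.25. In the NAc interaction it became 1 by DESeq2. The cause was not tested.

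In the cocaine libraries, which are other samples, the NAc against the PFC gave 5 higher and 7 lower, the VTA against the PFC 11 higher and 2 lower, and the VTA against the NAc 16 higher. Leaving out 1 library at a time gave 2 to 4 members higher in the NAc than in the PFC, 19 to 32 in the VTA than in the PFC and 16 to 33 in the VTA than in the NAc; the lowest VTA counts, and 4 for the NAc, came without VTA saline library 4.

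At 1 day the replicate block gave 0 called members in each region, and 4, 23 and 9 members at an unadjusted p under 0.05 in the NAc, VTA and PFC, against 4, 6 and 10 without it. Same-numbered libraries correlated between -0.61 and 0.74 (NAc), -0.33 and 0.52 (VTA) and -0.22 and 0.15 (PFC), with 3, 4 and 1 of 6 pairs over 0.1, so the numbers were not taken to pair the libraries. At 28 days no paired fit was made, because the columns carry no number of the labels. By edgeR on recovered reads 12 members of the VTA at 1 day were at an unadjusted p under 0.05. Low members, such as transcription factors near 1 RPKM, are limited most by depth.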
